A study of Mus musculus with 2 samples.

Results

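The S100 genes described here are S100a8, S100a9, S100a4, S100a6, S100a10, S100a11 and S100a13, chosen by symbol, 7 of the 55357 genes listed and 7 of the 20 rows whose symbol starts with S100. Each of the 7 symbols had 1 row in both libraries. Single-cell RNA sequencing had been done on dissociated mouse liver in 2 groups with 1 library each: CCl4+IPA, and CCl4. All animals had liver fibrosis brought on by CCl4 (carbon tetrachloride, a liver toxin), and the CCl4+IPA animals also received IPA (indole propionic acid, a bacterial product of tryptophan). The study asks, by its title, how IPA bears on fibrosis and on macrophages. Strain, age, sex, dose, time and the number of animals pooled per library are not given in the sources used here.

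S100 proteins are small calcium-binding proteins that mostly work as dimers. S100A8 and S100A9 pair as calprotectin, an abundant protein of the neutrophil cytosol that binds metal ions and, once released, can act on Toll-like receptor 4 and on RAGE, the product of Ager. S100A4 binds non-muscle myosin and is known from motile cells, fibroblasts and memory T cells. S100A10 and S100A11 bind annexins at membranes, S100A6 binds the calcyclin-binding protein Cacybp, and S100A13 takes part in the unconventional release of FGF1 and interleukin 1 alpha.

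In the RefSeq table of build GRCm38.p6, the genes lie on mouse chromosome 3. S100a13, S100a4, S100a6, S100a8 and S100a9 stand in that order among other S100 genes. S100a8 and S100a9 are direct neighbours, while S100a11 and S100a10 lie farther along, past a run of skin barrier genes. The 300 bases around the annotated starts of S100a8 and S100a9 (250 before and 50 after) are shown because these neighbours had the most similar levels of any pair described here. Capitals mark matches, on either strand, to TATAAA (the TATA box), TTGCNNAA (a C/EBP-type motif) or GAGGAA (a PU.1-type motif).
S100a8 (GRCm38.p6, chr3:90668821-90669120, plus strand): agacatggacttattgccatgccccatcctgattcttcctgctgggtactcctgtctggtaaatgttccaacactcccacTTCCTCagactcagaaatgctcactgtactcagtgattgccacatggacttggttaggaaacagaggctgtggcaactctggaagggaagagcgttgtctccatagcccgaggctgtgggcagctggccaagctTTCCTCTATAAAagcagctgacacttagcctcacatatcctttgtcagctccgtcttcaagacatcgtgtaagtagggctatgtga
S100a9 (GRCm38.p6, chr3:90695672-90695971, minus strand): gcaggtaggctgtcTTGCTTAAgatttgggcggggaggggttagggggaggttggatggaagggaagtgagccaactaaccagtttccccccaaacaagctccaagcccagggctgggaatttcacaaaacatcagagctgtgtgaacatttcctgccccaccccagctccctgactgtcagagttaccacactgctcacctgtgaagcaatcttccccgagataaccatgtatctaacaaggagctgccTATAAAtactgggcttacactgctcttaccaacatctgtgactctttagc

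The S100a8 window holds TATAAA at position -30 and GAGGAA on the reverse strand at -170 and -36, where the second abuts the TATAAA. The S100a9 window holds TTGCTTAA, a match to TTGCNNAA, at -236 and TATAAA at 1, the first base after the annotated start. Of 32851 promoters of this length, 13.6% hold TATAAA, 10.8% hold TTGCNNAA and 28.3% hold GAGGAA. These matches describe letters in a window and show no binding. Of the 7 genes, 6 had a promoter in the table; S100a10 is named only. S100a4 has TATAAA at -31 and GAGGAA at 20, S100a11 has GAGGAA at -153, and the windows of S100a6 and S100a13 hold none of the motifs.

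The IPA library (CCl4+IPA) held 10471 barcodes and 37983923 unique molecular identifiers (UMIs, each a counted RNA molecule), and the CCl4 library 10427 barcodes and 45009730 UMIs. Median depth was 2771 UMIs in the IPA library and 3172 in the CCl4 library. Barcodes were placed in 16 classes by lists of marker genes, none of them an S100 gene, and 10 classes with at least 50 cells in 1 library are described. Most cells were immune: hepatocytes, the main cell of liver tissue, numbered 18 and 12 (IPA and CCl4 libraries). Gate markers of 8 of these classes were each highest in their own class in both libraries, those of conventional dendritic cells in 6 of 7 cases, while 4 of 8 monocyte markers were highest in monocytes of the IPA library and 6 of 8 in those of the CCl4 library. A cluster carrying markers of several lineages held 3 barcodes of the IPA library and 560 of the CCl4 library and was left out, as were barcodes passing gates of several lineages (199 and 236). The libraries shared 23 barcode sequences. Levels are a gene's UMIs per 1000000 UMIs of its class (CPM), with 95% exact Poisson intervals; these and all other intervals reflect counting error alone. Each group being a single library, there is no replicate check and no difference between the libraries was tested.

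S100a8 and S100a9 were genes of neutrophils in both libraries. S100a8 reached 75266 CPM in neutrophils of the IPA library and 84151 CPM in those of the CCl4 library, from 1018 and 794 cells. S100a9 reached 89923 CPM in the IPA library and 98573 CPM in the CCl4 library. At least 1 UMI of S100a8 was present in 98% of neutrophils of the IPA library and 98.9% of those of the CCl4 library, at median depths of 1723 and 2312 UMIs. Levels were slightly lower with IPA, with a ratio of 0.894 (95% interval 0.889 to 0.9) for S100a8 and 0.912 (0.907 to 0.918) for S100a9, both far inside the 1.5-fold limit used below. Neutrophils held 81.8% of all S100a8 UMIs of the IPA library and 84.6% of those of the CCl4 library, and 84.2% and 86.1% of the S100a9 UMIs.

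**Figure D1:**
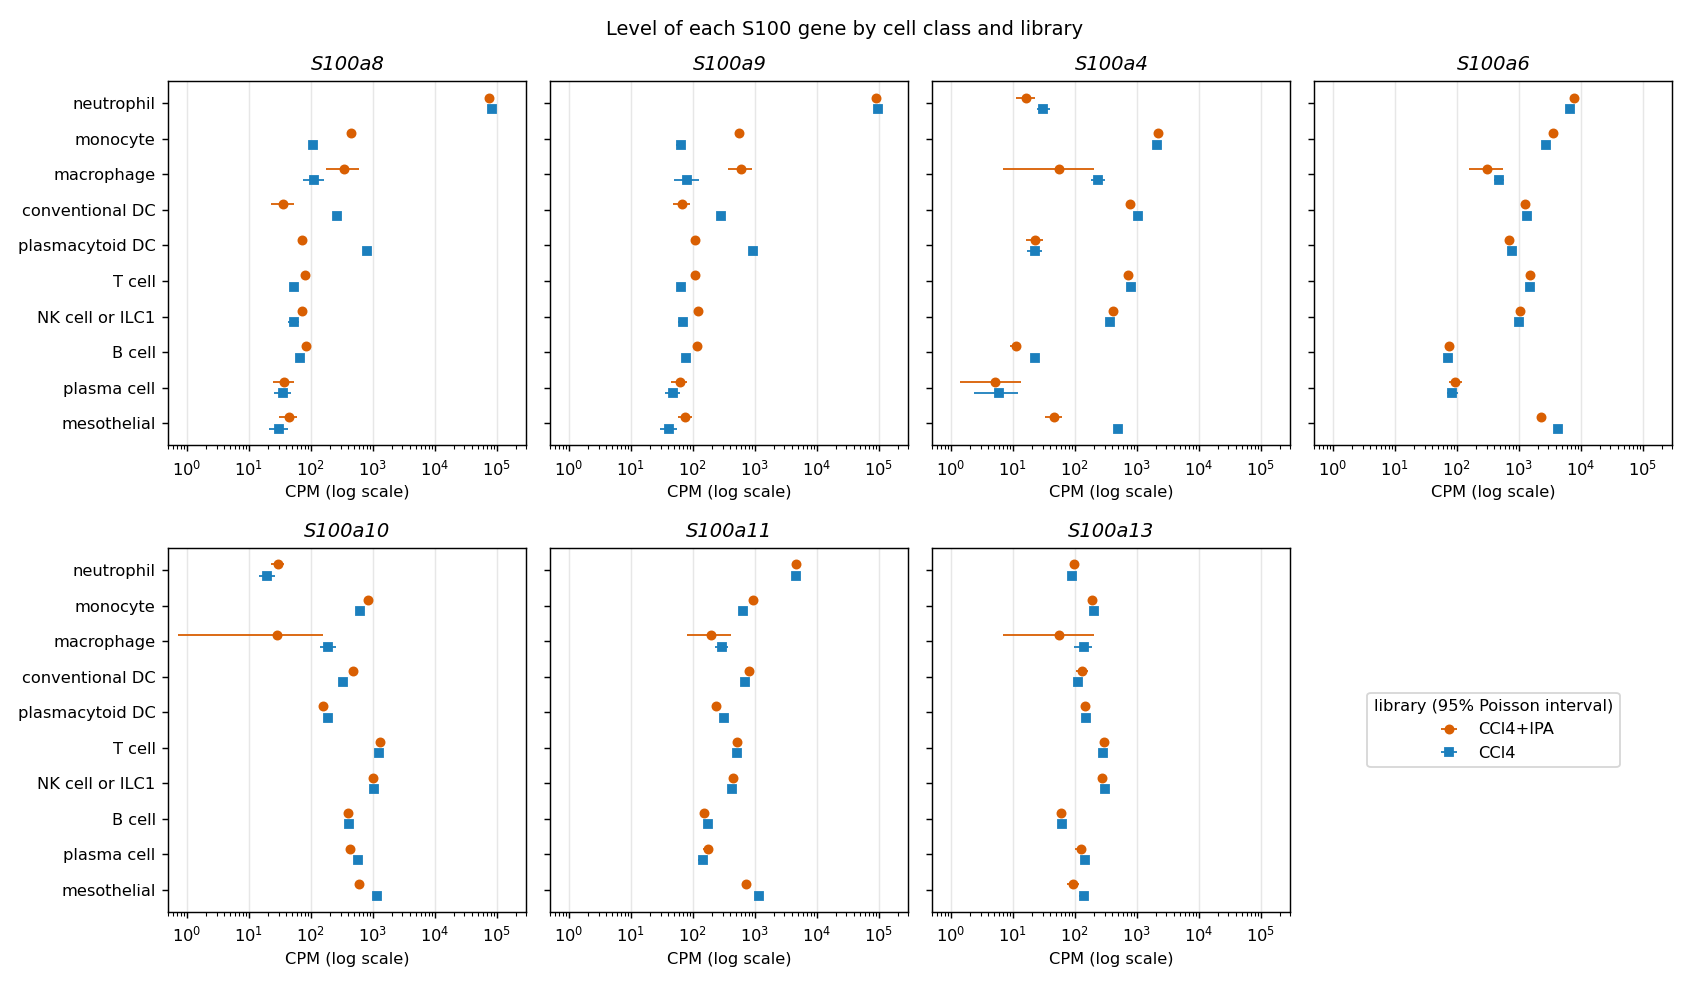
Level of each S100 gene (CPM, log axis) in the 10 classes, CCl4+IPA as circles above CCl4 as squares, with 95% Poisson intervals. S100a8 and S100a9 in neutrophils stand far to the right of every other class (S100a8 at 75266 CPM with CCl4+IPA and 84151 with CCl4), while S100a4 is highest in monocytes at 2155 and 2134.

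Calprotectin RNA took up a large part of the RNA counted in a neutrophil. The pair made up 16.5% of neutrophil UMIs in the IPA library and 18.3% in the CCl4 library. Cells differed widely: the share in a cell had a median of 9.42% with a 10th percentile of 1.2% and a 90th of 28.2% in the IPA library. In the CCl4 library the median was 9.18%, with 1.58% and 30.9% at these percentiles. The highest cells stood at 47.1% in the IPA library and 45% in the CCl4 library. Across neutrophils, S100a8 and S100a9 varied together, with a Spearman rho of 0.93 over 1018 cells of the IPA library and 0.92 over 794 cells of the CCl4 library, given as a description of cells that share a library.

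The level differed by stage of maturity. Neutrophils with at least 2 of the secondary granule genes Ltf, Camp and Ngp (immature, 99 cells of the IPA library and 104 of the CCl4 library) had 160077 CPM of S100a8 in the IPA library and 155484 in the CCl4 library. Those with none of these genes and at least 2 of Cxcr2, Mmp8, Retnlg and Il1r2 (mature, 754 and 546 cells) had 46000 CPM in the IPA library and 48022 in the CCl4 library. The ratio of immature to mature for S100a8 was 3.48 (3.44 to 3.52) with IPA and 3.24 (3.21 to 3.27) with CCl4, and for S100a9 2.73 and 2.78. Immature cells were deeper, at medians of 4523 UMIs with IPA and 6714 with CCl4, against 1694 and 2222 in mature ones. Both stages were gated on detected genes, and detection depends on depth. The pair made up 33.1% of the UMIs of immature neutrophils in the IPA library and 32.7% in the CCl4 library, against 10.9% and 11% in mature ones. Within each stage the libraries lay close together, with a ratio of 1.03 for S100a8 in immature and 0.958 in mature cells. Immature cells were 9.72% of neutrophils in the IPA library and 13.1% in the CCl4 library, a difference that moves with the slightly lower summed level with IPA; its part in that was not tested.

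The other members split into those that neutrophils carried and those they did not. S100a6 was at 7675 CPM in neutrophils of the IPA library and 6609 in those of the CCl4 library, the highest of any class, and S100a11 at 4616 and 4532, also the highest. S100a6 differed little by stage (immature over mature 0.893 in the IPA library and 1.05 in the CCl4 library). S100a11 ran against S100a8, with 3127 CPM in immature and 5232 in mature cells of the IPA library, and 3740 and 4974 in the CCl4 library. S100a13, low in neutrophils at 95.29 and 90.6 CPM, followed S100a8 (immature over mature 3.16 and 2.09). S100a4 and S100a10 were scarce: 16.19 and 31.05 CPM of S100a4, and 29.14 and 19.57 CPM of S100a10. Of the 73 S100a4 UMIs in CCl4 neutrophils 38 came from 1 barcode, and without the top barcode of each library the levels were 13.01 CPM with IPA and 15 with CCl4.

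Granulocyte progenitors, a small class of 22 and 19 cells gated on Elane, Prtn3, Mpo and Ctsg, held 10.6% of the S100a8 UMIs of the IPA library and 3.16% of those of the CCl4 library. Their level was 57370 CPM with IPA and 16119 CPM with CCl4. It rested on few cells: 1 barcode held 23.2% of these UMIs in the IPA library and 1 barcode held 55.1% in the CCl4 library. The number of S100a9 UMIs per S100a8 UMI ordered the cells by stage, at 0.901 in progenitors, 1.07 in immature and 1.36 in mature neutrophils of the IPA library. These values were 0.972, 1.11 and 1.29 in the CCl4 library.

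Lymphocytes are not known to make calprotectin, yet S100a8 and S100a9 UMIs were found across them. B cells had 83.84 CPM of S100a8 in the IPA library and 65.53 in the CCl4 library. T cells had 79.38 and 53.23 CPM, and NK cells or ILC1 (type 1 innate lymphoid cells) 72.17 and 52.59. These levels were tiny beside neutrophils: the B cell level was 0.111% (0.103 to 0.12) of the neutrophil level with IPA and 0.0779% (0.0724 to 0.0837) with CCl4. T cells stood at 0.105% and 0.0633%, and NK cells or ILC1 at 0.0959% and 0.0625%.

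**Figure D2:**
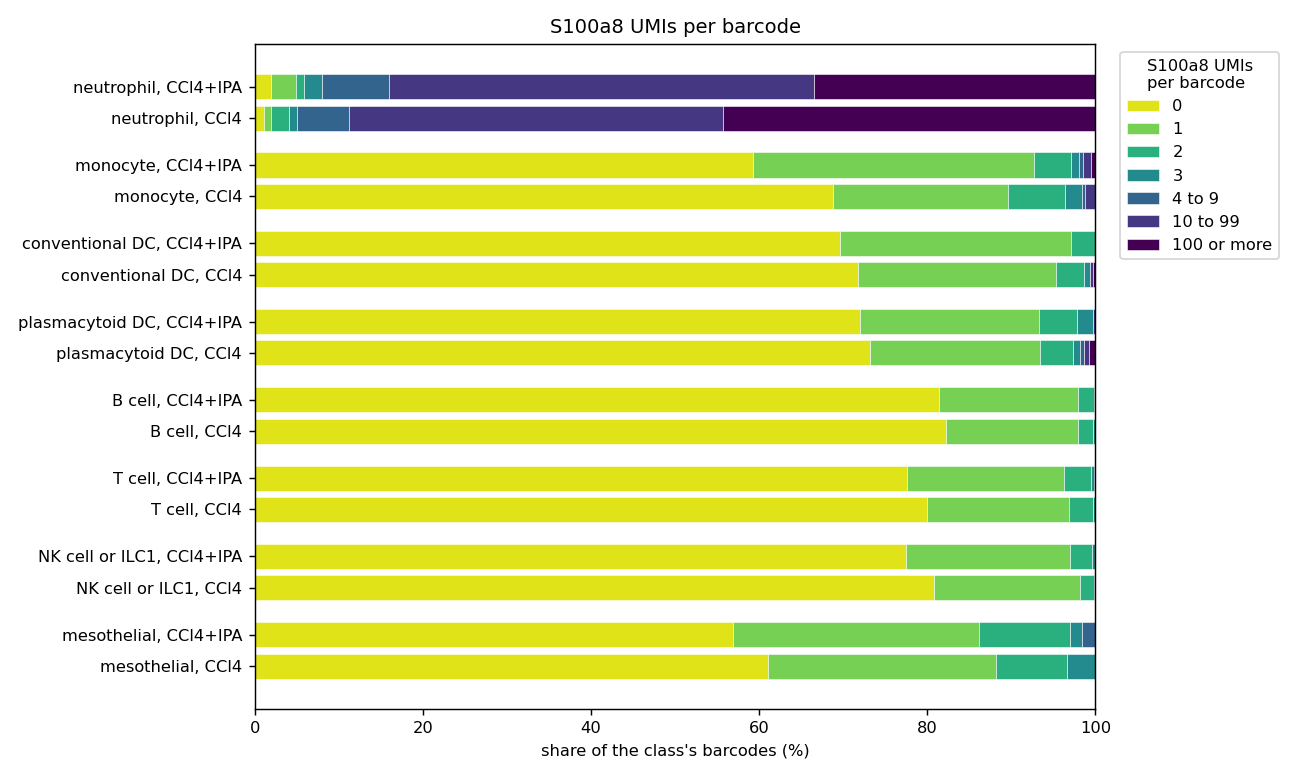
Share of the barcodes of a class (x axis, %) that held 0, 1, 2, 3, 4 to 9, 10 to 99 or 100 or more S100a8 UMIs, with CCl4+IPA above CCl4 in each pair of bars. Most neutrophils hold 10 or more, while most barcodes of every other class shown hold 0 and nearly all the rest 1 or 2.

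The lymphocyte signal was spread thin over many barcodes. Of 3243 B cells of the IPA library, 2640 had no S100a8 UMI, 534 had 1, 62 had 2, 5 had 3 and 2 had 4 to 9. Of 3731 B cells of the CCl4 library, 3070 had none, 585 had 1, 67 had 2 and 9 had 3. No B cell of either library had 10 or more, against 855 of 1018 neutrophils in the IPA library and 705 of 794 in the CCl4 library. The gating shapes this contrast, since barcodes passing both a lymphocyte gate and the neutrophil gate were left out. Barcodes of several lineages held 12032 S100a8 UMIs in the IPA library and 17399 in the CCl4 library, against 684 and 746 in B cells. The share of B cells with a UMI was 18.6% in the IPA library and 17.7% in the CCl4 library at median depths of 2344 and 2789 UMIs. With every cell thinned to 1000 UMIs, it was 8.52% and 6.72%, while neutrophils stayed at 97.8% and 98.4%. Whether these UMIs came from the cells or from free RNA in the droplets was not tested.

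Deeper barcodes carried more of it in number but less per UMI. With the B cells of a library put in 4 bins of equal number by depth, in the shallowest bin of the IPA library (median 1690 UMIs) the mean was 0.147 S100a8 UMIs per barcode, and in the deepest (3332 UMIs) 0.262, while CPM was 94 in the shallowest and 69.3 in the deepest. The same bins of the CCl4 library had 0.149 and 0.259 UMIs per barcode, and 77.7 and 55.3 CPM. Plasma cells and mesothelial cells, the deepest of the 10 main classes, had among these the lowest S100a8 CPM apart from conventional dendritic cells of the IPA library: plasma cells 36.29 with IPA and 34.78 with CCl4, and mesothelial cells 43.53 and 30.42.

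Other neutrophil genes were present in lymphocytes at a like small percentage of their neutrophil level. Retnlg, Mmp9, Mmp8, Csf3r, Cxcr2, Hdc, Ltf, Camp and Ngp among them were also neutrophil gate markers, unlike S100a8 and S100a9. Barcodes with enough of these markers to pass the neutrophil gate were left out of lymphocytes, which limits their percentages there. Over all 14 neutrophil genes examined, the median in B cells of the IPA library was 0.242%, from Mmp8 at 0.0965% to Lyz2 at 0.87%. In the CCl4 library it was 0.11%, from Mmp8 at 0.0558% to Lyz2 at 0.717%. Lyz2 was not particular to neutrophils: monocytes had 679% of its neutrophil level with IPA and 433% with CCl4. The next highest in B cells were Wfdc21 at 0.431% with IPA and Il1b at 0.284% with CCl4. S100a8 and S100a9 (0.13% with IPA and 0.0788% with CCl4) lay inside these ranges with or without Lyz2, both in the lower part. In T cells the median was 0.17% in the IPA library and 0.0978% in the CCl4 library, and in NK cells or ILC1 0.171% and 0.117%. By contrast S100a6 stood at 19.6% and 22.8% of its neutrophil level in T cells, and S100a11 at 10.9% and 11.4%. In B cells, where 52 of its 618 UMIs and 91 of 805 came from 1 cell, S100a6 stood at 0.987% and 1.07%, and S100a11 at 3.25% and 3.83%, above the S100a8 percentage in both libraries. S100a9 UMIs per S100a8 UMI were 1.39 (1.26 to 1.54) in B cells of the IPA library, against 1.19 in its neutrophils, and 1.18 in B cells of the CCl4 library, against 1.17 in its neutrophils. In NK cells or ILC1 it was 1.68 (1.45 to 1.94) with IPA and 1.29 (1.01 to 1.66) with CCl4.

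**Figure D3:**
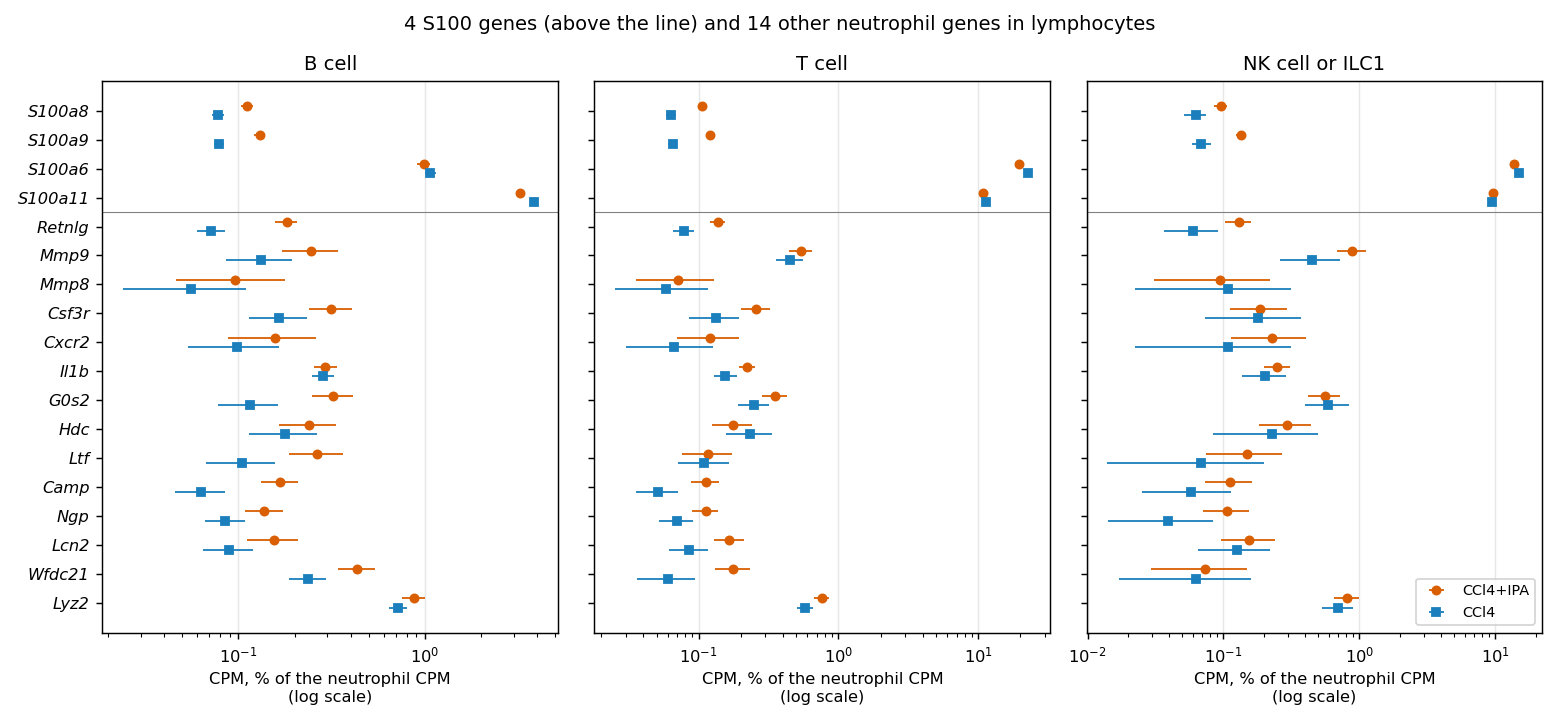
Level in B cells, T cells and NK cells or ILC1 as a percentage of the level in neutrophils of the same library (log axis), CCl4+IPA as circles above CCl4 as squares, with 95% intervals. S100a8 in B cells stands at 0.111% with CCl4+IPA and 0.0779% with CCl4, among the 14 other neutrophil genes below the line, and S100a6 and S100a11 lie to the right of it.

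The lymphocyte level of S100a9 was higher in the IPA library. The ratio was 1.51 (1.37 to 1.65) in B cells, 1.68 (1.53 to 1.84) in T cells and 1.78 (1.48 to 2.15) in NK cells or ILC1. S100a8 ratios were 1.28 (1.15 to 1.42), 1.49 (1.34 to 1.66) and 1.37 (1.1 to 1.72), inside 1.5-fold. One T cell barcode of the IPA library held 111 S100a8 UMIs, and without it the T cell level was 70.21 CPM. In B cells 7 of 13 measured neutrophil reference genes were also at least 1.5-fold higher with IPA and 0 lower, with a median log2 ratio of 0.95, against 0.28 over all genes of the class, of which 17.4% were higher and 3.69% lower. These were Retnlg, Mmp9, Csf3r, G0s2, Hdc, Ltf and Camp. In T cells 6 of 13 were higher (Retnlg, Csf3r, Cxcr2, Il1b, Camp and Wfdc21) and 0 lower, beside 17.4% and 3.29% of all genes. In NK cells or ILC1 6 of 10 were higher (Retnlg, Mmp9, Il1b, Hdc, Camp and Ngp) and 0 lower, beside 19.6% and 2.79%. In neutrophils themselves 1 of 14, Hdc, was higher and 0 lower, beside 15.8% and 4.3%. With the mixed cluster kept, a choice made after the data were seen, the B cell percentage of S100a8 in the CCl4 library became 0.145%, above the 0.111% of the IPA library. The B cell log2 ratio of S100a9 then became -0.05, so in B cells the direction depends on the mixed cluster being left out. The 1.5-fold mark was also missed in B cells, by log2 ratio, with classes by clusters (0.54), a stricter gate (0.57) and doublets kept (0.55). The same held with several lineages kept (0.36), thinning (0.47) and, narrowly, the top barcodes left out (0.58). In T cells the mark was missed with classes by clusters (0.53). Less the median of all genes the log2 ratio of S100a9 was 0.31 in B cells and 0.47 in T cells, both inside 1.5-fold.

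Monocytes and dendritic cells held S100a8 mostly in a few barcodes. Counted in the same lineage as neutrophils, these classes kept barcodes that also passed the neutrophil gate, which lymphocyte classes did not. Monocytes had 435.3 CPM in the IPA library and 107.5 in the CCl4 library, a ratio of 4.05 (3.45 to 4.76), but 1 barcode held 440 of the 576 UMIs of the IPA library. Without the top barcode of each library the levels were 103.4 CPM with IPA and 85.54 with CCl4. S100a9 in monocytes was at 549.4 and 63.2 CPM, and at 132.2 and 54.81 without the top barcodes. The sum of the 11 neutrophil markers was also higher in monocytes of the IPA library, at 740.6 CPM against 309.4, with 0 of 11 markers at 0 in either library; their part in the difference was not tested. With the 68 and 46 monocytes that also pass the neutrophil gate left out, likewise chosen after the data were seen, the log2 ratio of S100a8 became -0.58 and that of S100a9 0.14. With classes by clusters they became -0.93 and -0.60. That setting did not drop barcodes of several lineages, and monocytes then held 636 S100a8 UMIs with IPA and 1638 with CCl4.

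In dendritic cells the level was lower with IPA, again through a few barcodes. Plasmacytoid dendritic cells had 72.56 CPM of S100a8 in the IPA library and 817.8 in the CCl4 library, where 5 of 377 barcodes held 94.1% of the UMIs and 4 of those 5 passed the neutrophil gate. Among barcodes with fewer than 10 UMIs of the gene the level was 60.98 CPM with IPA and 49.62 with CCl4, near that of lymphocytes. Conventional dendritic cells had 35.9 and 265 CPM, and 1 barcode of the CCl4 library held 637 of 762 UMIs; without the top barcodes the levels were 33.17 and 43.68. S100a9 there was at 65.56 and 285.6 CPM, and at 63.95 and 49.27 without the top barcodes, the other direction. With classes by clusters the log2 ratios in conventional dendritic cells also turned, to 1.73 for S100a8 and 1.89 for S100a9. Neutrophil markers summed to 56.09 CPM in plasmacytoid dendritic cells of the IPA library and 463.5 in those of the CCl4 library, with 9 of 11 lower with IPA, none at 0 in either. In conventional dendritic cells they summed to 90.54 and 156.2 CPM, with 9 of 11 lower with IPA and 1 at 0 in the IPA library.

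Among the 10 main classes, the order of S100a8 below neutrophils differed between the libraries. In the IPA library monocytes and macrophages came next with overlapping intervals, but 10 of the 12 macrophage UMIs were in 1 barcode that also passed the neutrophil gate, and without it macrophages were at 66.76 CPM, below B cells. Then came B, T, plasmacytoid dendritic and NK cells, whose neighbours overlapped, and last mesothelial, plasma and conventional dendritic cells. In the CCl4 library plasmacytoid and then conventional dendritic cells came next, each apart from its neighbours, followed by macrophages and monocytes, which overlapped, and the lymphocytes.

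S100a4, which binds non-muscle myosin, was led by monocytes. They had 2155 CPM in the IPA library and 2134 in the CCl4 library, and a UMI was found in 97.5% and 91.2% of cells. In the small class of stellate cells, fibroblasts or smooth muscle cells, 7 cells of the IPA library had 0 UMIs (95% interval up to 514.3 CPM) and 20 cells of the CCl4 library had 409.2 CPM, so no difference was detectable at this depth. Conventional dendritic cells followed with 761.8 and 1051 CPM, and T cells with 727.3 and 797.9; in the IPA library the intervals of these classes overlapped. NK cells or ILC1 had 406.4 and 362.7 CPM. B cells had 11.15 and 22.93 CPM, with a UMI in 2.31% and 3.43% of cells. Whether these UMIs came from the cells or from free RNA was not tested. In the CCl4 library 1 B cell barcode held 45 of the 261 UMIs. Nonclassical monocytes (40 and 89 cells) had 2178 CPM with IPA and 1872 with CCl4, and classical ones (104 and 92 cells) 2200 and 2232. Among conventional dendritic cells S100a4 separated the subsets: cDC2 (52 and 213 cells) had 984.7 and 1127 CPM, and cDC1 (5 and 15 cells) 76.65 and 136.5.

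S100a4 in T cells as a whole had a ratio of 0.912 (0.885 to 0.939), while regulatory T cells and Trdc-positive T cells were further below 1. Regulatory T cells (Foxp3 with Il2ra or Ctla4; 204 and 98 cells) had 1557 CPM with IPA and 2786 with CCl4, a ratio of 0.559 (0.517 to 0.604), with a median of 3 UMIs per cell in the IPA library and 8 in the CCl4 library. S100a6 in these cells was at 2583 and 3823 CPM (ratio 0.676), S100a10 at 2408 and 2802, and S100a11 at 760.3 and 1027. Trdc-positive T cells, which carry the gamma delta receptor constant gene, had 978.5 and 1748 CPM of S100a4 (143 and 173 cells, ratio 0.56, 0.508 to 0.617) and 611.1 and 942.9 of S100a11. Median depth in regulatory T cells was 3104 UMIs in the IPA library and 4166 in the CCl4 library.

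Among innate lymphocytes S100a4 differed between ILC1 (371 and 127 cells) and conventional NK cells (512 and 275 cells). ILC1 had 690.2 CPM of S100a4 in the IPA library and 803.4 in the CCl4 library, and conventional NK cells 149.6 and 113.4, a ratio of ILC1 to NK of 4.61 (4.02 to 5.31) and 7.08 (5.79 to 8.73). S100a6 differed less, at 1220 and 1015 CPM in ILC1 and 846.8 and 915.1 in NK cells. S100a13 ran against S100a4, with an ILC1 to NK ratio of 0.673 and 0.625.

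**Figure D4:**
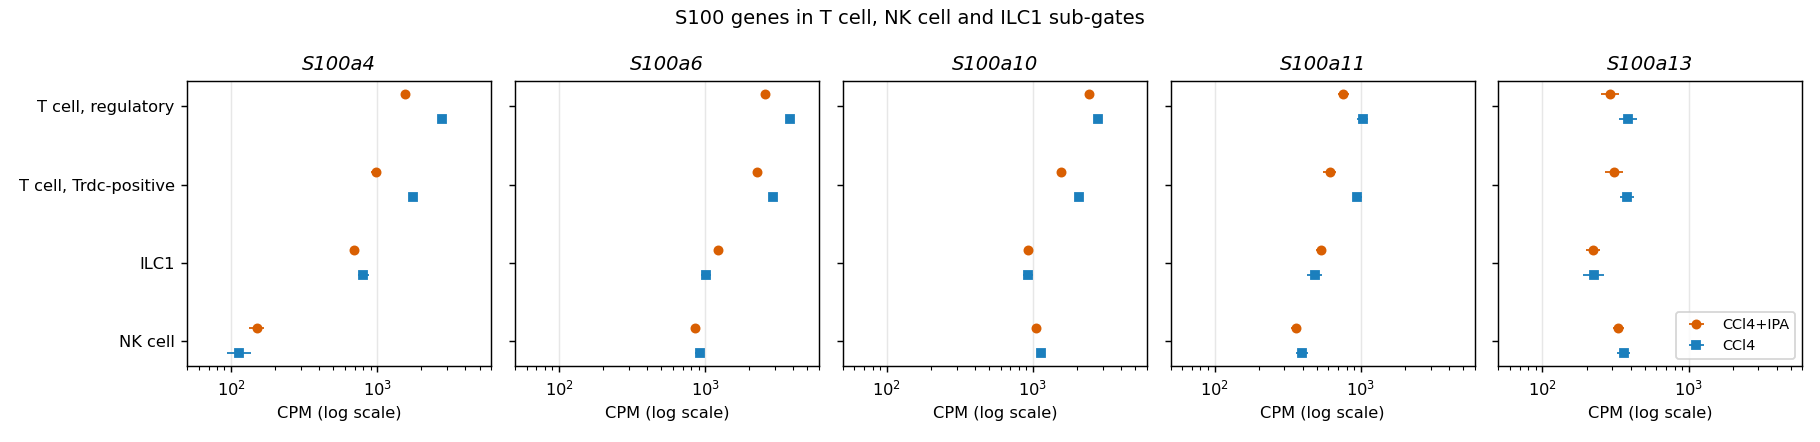
Level of 5 S100 genes (CPM, log axis) in regulatory T cells, Trdc-positive T cells, ILC1 and NK cells, CCl4+IPA as circles above CCl4 as squares, with 95% Poisson intervals. S100a4 lies further left with CCl4+IPA in regulatory T cells (1557 CPM, against 2786 with CCl4) and in Trdc-positive T cells (978.5, against 1748), and ILC1 lie to the right of NK cells for S100a4.

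S100a6, the calcyclin partner of Cacybp, was highest in neutrophils and next highest in monocytes (3491 CPM) in the IPA library and in mesothelial cells (4206 CPM) in the CCl4 library. Monocytes had a ratio of 1.28 (1.23 to 1.33), and the median cell was at 3309 CPM with IPA and 2325 with CCl4. T cells had 1502 and 1510 CPM, conventional dendritic cells 1274 and 1346, and NK cells or ILC1 1054 and 989.1. Plasma cells (94.62 and 83.99 CPM) and B cells (75.75 and 70.71) came last, with overlapping intervals in each library. Across T cells S100a4 and S100a6 varied together, with a Spearman rho of 0.65 over 3127 cells of the IPA library and 0.66 over 2439 of the CCl4 library.

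S100a10, which joins annexin A2 in a membrane complex, had another order. Of the 10 main classes T cells led, with 1284 CPM in the IPA library and 1245 in the CCl4 library, followed in the IPA library by NK cells or ILC1 at 992.7; in the CCl4 library T, mesothelial and NK cells had overlapping intervals. B cells had 396.5 and 408.6 CPM and plasma cells 430.3 and 570.1. Neutrophils were near the bottom at 29.14 and 19.57. Basophils or mast cells, a small class, carried it in 30 of 30 cells of the IPA library and 41 of 41 of the CCl4 library, at 1233 and 1309 CPM. Nonclassical monocytes had 435.5 and 354.5 CPM and classical ones 986.1 and 833.7, with a nonclassical to classical ratio of 0.442 (0.357 to 0.542) with IPA and 0.425 (0.363 to 0.497) with CCl4.

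S100a11, a partner of annexins A1 and A2, was led by neutrophils and followed in the IPA library by monocytes (922 CPM), conventional dendritic cells (814.8) and mesothelial cells (709.5), whose neighbours overlapped. Next to neutrophils in the CCl4 library came mesothelial cells (1160 CPM), then conventional dendritic cells (689.8) and monocytes (651.9), which overlapped. T cells had 504.6 and 515.1 CPM and B cells 150.2 and 173.4. S100a13 was led by T cells (289.6 and 279 CPM) and NK cells or ILC1 (277.9 and 303.7 CPM), whose intervals overlapped in each library. Monocytes followed with 185.2 and 201.3 CPM, and B cells had 60.06 and 61.75.

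Mesothelial cells, which line the liver surface, were the class in which the most members were lower with IPA. S100a4 had 42 UMIs in 65 cells of the IPA library and 518 UMIs in 59 cells of the CCl4 library, which is 45.71 CPM against 492.5, a ratio of 0.0928 (0.0661 to 0.127). A UMI was found in 26 of 65 cells of the IPA library and 38 of 59 of the CCl4 library. The highest cell of the CCl4 library held 154 UMIs; without the top cell of each library the levels were 39.84 and 359 CPM. S100a6 was at 2298 and 4206 CPM (ratio 0.546, 0.519 to 0.576), and its median cell at 1558 and 3105. S100a10 was at 602.9 and 1157 (ratio 0.521), S100a11 at 709.5 and 1160 (0.612), and S100a13 at 92.5 and 139.8 (0.662). S100a9 was higher, at 75.09 and 40.88 CPM (1.84, 1.24 to 2.75), at levels like those of lymphocytes.

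Other genes moved in mesothelial cells too. The 10 markers of stellate cells, fibroblasts and smooth muscle summed to 6590 CPM in the IPA library and 8875 in the CCl4 library. Of these, 7 of 10 were lower with IPA, and 3 and 2 were at 0. Most of each sum was Dcn, whose highest level in any main class was 5490 CPM with IPA and 5176 with CCl4. For Col1a1, Col1a2 and Col3a1 these highest levels were 144.7, 528.9 and 397.2 CPM with IPA, and 496.3, 1242 and 1900 with CCl4. The part of these markers in the S100 differences was not tested. The 7 mesothelial markers summed to 5982 and 5624 CPM. Median depth was 12942 UMIs with IPA and 17095 with CCl4. The S100a4 difference was smaller when classes were taken from clusters (log2 ratio -1.29, against -3.43) or when barcodes of several lineages were kept (-1.31). Under those settings S100a6 moved to -0.49 and -0.59, S100a10 to -0.42 and -0.35, S100a11 to -0.51 and -0.45, and S100a13 to -0.54 and -0.18, so the 1.5-fold mark was passed by S100a4 in both settings and by S100a6 with several lineages kept. S100a11 also missed the mark as a mean over cells (-0.54) and thinned (-0.42). S100a13 missed it as a mean over cells (-0.40), without the top barcodes (-0.57) and with doublets kept (-0.58). In these further settings S100a4, S100a6 and S100a10 stayed past it.

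**Figure D5:**
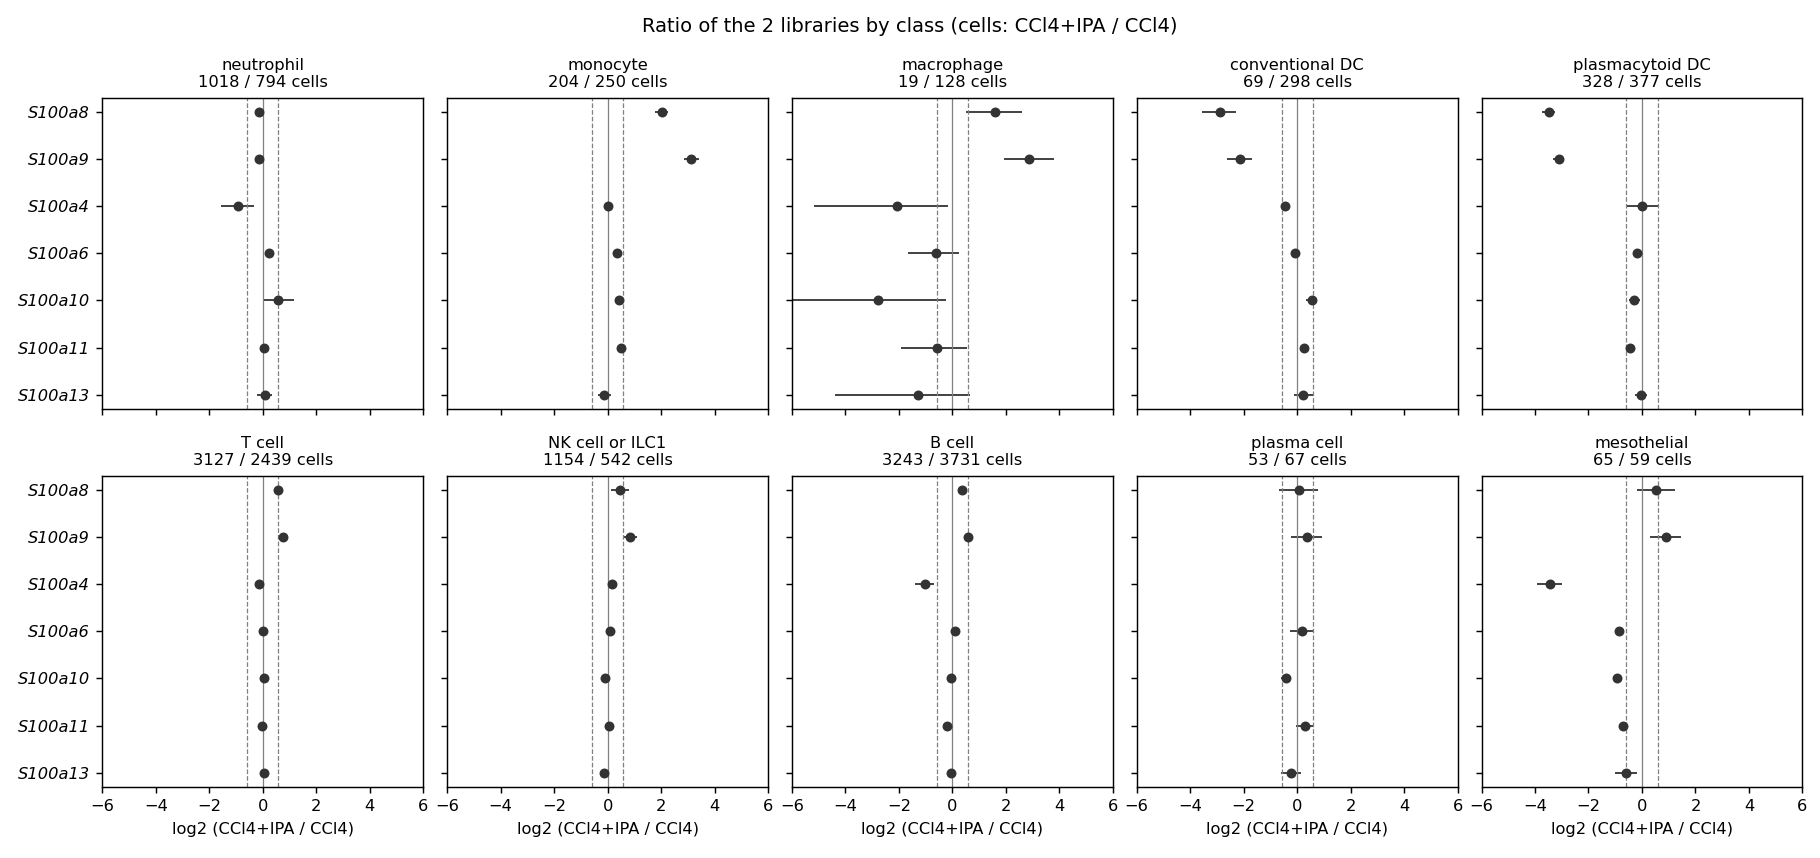
Log2 ratio of CCl4+IPA over CCl4 for each member in each class, with 95% intervals and dashed lines at 1.5-fold; the number of cells in CCl4+IPA and in CCl4 stands above each panel. Lymphocyte, neutrophil and plasma cell panels lie mostly between the dashed lines, S100a4 in mesothelial cells stands at -3.43, and S100a8 and S100a9 stand to the right in monocytes and to the left in dendritic cells.

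Counted over all classes, 69 pairs of member and class had at least 20 UMIs over both libraries; S100a4 in plasma cells did not. Of these, 8 were at least 1.5-fold higher with IPA, 15 at least 1.5-fold lower and 46 within. Over all genes of the 10 classes, 17.6% of 88953 pairs were at least 1.5-fold higher and 6.12% lower. All 8 higher pairs were of S100a8 or S100a9, and without the top barcode of each library 5 pairs were higher and 11 lower. Of the 49 pairs of the other 5 members, 0 were higher, 11 lower and 38 within. Of these 11, 5 were in mesothelial cells and 4 in macrophages, both classes of few cells, and the rest were S100a4 in B cells and in neutrophils. Mesothelial cells gave 5 lower and 1 higher of 7, where 11.8% of all genes were lower and 17.9% higher. T cells gave 0 lower and 1 higher (S100a9), where 3.29% were lower and 17.4% higher. B cells gave S100a9 higher and S100a4 lower, and NK cells or ILC1 gave S100a9 higher. The median log2 ratio of all genes was above 0 in 9 of the 10 classes, at 0.28 in B cells, 0.28 in T cells and 0.17 in neutrophils, so a member at 0 sat below the median gene. With that median taken off, 6 pairs were higher and 18 lower.

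Macrophages, central to the study, gave little on these genes. The class held 19 cells and 35506 UMIs in the IPA library and 128 cells and 260365 UMIs in the CCl4 library, at median depths of 1194 and 1081 UMIs. S100a4 had 2 UMIs with IPA and 62 with CCl4 (ratio 0.237, 0.028 to 0.891), S100a10 had 1 and 50 (0.147, 0.00364 to 0.855), and S100a6 had 11 and 125 (0.645, 0.314 to 1.19). S100a8 had 12 and 29 UMIs (ratio 3.03, 1.41 to 6.13) and S100a9 had 21 and 21 (7.33, 3.81 to 14.1), with 10 and 18 of the UMIs of the IPA library in its top barcode. Of 7 members 2 counted as higher and 4 as lower, where 23.7% of all genes were higher and 10.1% lower. Without the top barcodes the log2 ratio of S100a8 became -0.14. Kupffer-gated cells were 10 of 19 in the IPA library and 18 of 128 in the CCl4 library, so the class differed in make-up between the libraries. With a stricter gate the log2 ratios of S100a4, S100a6 and S100a10 became 1.47, 1.41 and 2.39, on the other side of 0. That gate did not give a subset of the same macrophages but let in other barcodes. The class then held 32, 56 and 36 UMIs of these genes with IPA, and 59, 107 and 35 with CCl4.

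Partners and receptors of S100 proteins were followed as a list of 20 genes. In neutrophils 17 were measured; 2 were at least 1.5-fold higher with IPA and 0 lower, beside 15.8% and 4.3% of all genes. Anxa6, an annexin, was at 81.41 CPM with IPA and 39.56 with CCl4 (ratio 2.06, 1.59 to 2.68), and Ager, the gene of RAGE, at 8.789 and 4.254 on 19 and 10 UMIs. The list's median log2 ratio in neutrophils was 0.02, against 0.17 over all genes. The formyl peptide receptors Fpr1 (169.3 and 182.1 CPM) and Fpr2 (307.1 and 327.1 CPM) and the annexin Anxa1 (1036 and 1332 CPM) were inside 1.5-fold, as was Tlr4, at 34.69 and 49.77 CPM.

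In mesothelial cells 15 partners were measured, 1 higher and 4 lower, beside 17.9% and 11.8% of all genes, with a median log2 ratio of -0.20, against 0.06 over all genes. The 4 lower were Anxa2, the S100a10 partner, at 308 CPM with IPA and 650.3 with CCl4, Anxa1 at 358 and 562.8, Cacybp at 53.32 and 84.61, and Plat, tissue plasminogen activator, at 30.47 and 46.58. Alcam, an adhesion molecule, was higher at 2010 and 1337 CPM. Of 9 other S100 genes only S100a1 (442.9 and 665.5 CPM) and S100a16 (78.35 and 122.6 CPM) were measured in this class, and both were lower with IPA, beside the same 11.8% of all genes. In monocytes 15 partners were measured, with 0 higher and 3 lower: Tlr4 at 11.34 and 17.33 CPM, Cd36 at 6.046 and 9.684 CPM and Fpr1 at 2.267 and 12.23 CPM, all on few UMIs. In monocytes 15.5% of all genes were higher and 6.5% lower. S100a1 was also higher in NK cells or ILC1 (35.01 and 23.12 CPM) and lower in neutrophils (9 and 20 UMIs).

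In lymphocytes the list stayed mostly inside 1.5-fold. Of 13 measured in T cells 1 was higher (Mcam, on 22 and 12 UMIs) and 0 lower, beside 17.4% and 3.29% of all genes. In NK cells or ILC1 2 of 13 were higher, Anxa11 at 71.69 and 47.15 CPM and S100pbp at 35.01 and 23.12 CPM, beside 19.6% of all genes higher and 2.79% lower. In B cells 1 of 13 was lower, Anxa2 at 13.85 and 22.05 CPM, and 0 higher, beside 3.69% of all genes lower and 17.4% higher. In plasma cells 0 of 9 passed either mark, beside 15.4% and 17.2% of all genes. In macrophages and in both dendritic cell classes 1 gene was higher and 1 or 2 lower. In macrophages Anxa2 was higher (9 and 38 UMIs) and Anxa1 (1 and 51) and the scaffold gene Ahnak (1 and 67) lower, of 7 measured, beside 23.7% of all genes higher and 10.1% lower. In conventional dendritic cells the scavenger receptor Cd36 was higher (17 and 12 UMIs, 11 of the 17 in 1 cell) and Tlr4 lower (2 and 27), of 13 measured, beside 21.4% and 6.75% of all genes. In plasmacytoid dendritic cells S100pbp was higher (38.08 and 22.12 CPM) and Anxa1 lower (5 and 31 UMIs), of 11 measured, beside 15.4% and 4.2%.

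Levels across classes placed the members in different company. The measure was the Pearson correlation of log2(CPM + 10) over 27 points (classes of both libraries with at least 50000 UMIs), among 5483 genes; points of 1 library share depth, and the values are descriptions. S100a8 was most like S100a9 (0.994), then the granule genes Ngp (0.957) and Ltf (0.955). S100a4 was most like Cyria (0.866), 1700025G04Rik (0.795) and Cx3cr1 (0.79), the fractalkine receptor of nonclassical monocytes. S100a6 was most like Svil (0.796), Nod1 (0.79) and Tnfrsf1b (0.786), and S100a11 most like Card19 (0.873), Svil (0.855) and Gcnt2 (0.844). S100a10 was most like Tpr (0.823), Eif3j1 (0.797) and Eef1a1 (0.795), and S100a13 most like Lgals1 (0.763), Atp2b4 (0.752) and Ctla2a (0.715). Between members, S100a8 stood at 0.37 with S100a6 and 0.56 with S100a11, near 0 with S100a4 (-0.05) and S100a13 (-0.14), and at -0.64 with S100a10.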

How the data were processed

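Cells of dissociated mouse liver were sequenced with a 10x 3' kit, 1 library of CCl4+IPA and 1 of CCl4. The deposited values are whole UMI counts per gene and barcode, which the authors made, per the file headers, in Cell Ranger 7.1.0; build mm9 is named in the submitters' processing notes, and the intron setting and cell calling are not given in the sources used here. Depth was 37983923 UMIs in the CCl4+IPA library and 45009730 in the CCl4 library.

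From these counts, a barcode was kept (10459 and 10294 of them) from 500 UMIs and 300 genes up if its mitochondrial share lay below 20%, and Scrublet doublets (331 and 278) were removed. A class needed at least 3 of its markers, and a subset the genes stated in the text or here. NK cells had Eomes or Itga2 and none of Itga1, Cxcr6 and Tmem176a, and ILC1 the reverse. Classical monocytes had Ly6c2 or Ccr2 and none of Ace, Ear2 and Adgre4, of which nonclassical ones had at least 2. cDC1 had Xcr1 or Clec9a and cDC2 had Cd209a or Clec10a, each without the genes of the other. Kupffer-gated cells had at least 2 of Clec4f, Cd5l, Vsig4 and Timd4. Leiden clusters (29, resolution 1.5, 2000 variable genes without S100 genes, 30 components, 20 neighbours, seed 1) served to find the mixed cluster, in which at least 20% of barcodes passed gates of several of the B, T and myeloid lineages. Some broad markers of the marker lists were dropped from the gates after the data were seen. UMIs were summed per class and library; a gene was measured with at least 20 UMIs over both libraries, and counts under 3 were set to 3 in ratios that were counted against 1.5-fold. Level intervals are exact Poisson, ratios conditional binomial and shares Clopper-Pearson, at 95%. With 1 library per group no test was run; the scripts were tested on simulated data. The members, gene lists and named-gene rule (all members, every list gene past 1.5-fold, and the most alike genes by correlation) were chosen with earlier results of these data known. Alternatives were classes by clusters, a stricter gate, doublets or several lineages kept, looser or stricter filters, removal of the all-gene median, totals without S100a8 and S100a9, means over cells, thinning to 1000 UMIs and a minimum of 100 UMIs; 3 more were added after seeing the data (mixed cluster kept, barcodes passing the neutrophil and monocyte gates left out, top barcode left out). The work was done in scanpy 1.11.5, leidenalg 0.10.2, scipy 1.17.1, numpy 2.4.6, pandas 2.3.3 and matplotlib 3.10.9 under Python 3.11.15. Subsets of T cells by naive or effector state are not reported here.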

Additional observations from a re-analysis of the deposited data

Results flagged for a closer look

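S100a8 stood at 8272 CPM in the mixed cluster of the CCl4 library, which no comparison uses. It was picked out because the signal lies in barcodes outside the main measurement. The 560 barcodes of the CCl4 library held 5975 S100a8 UMIs and 5136 S100a9 UMIs, or 0.86 S100a9 UMIs per S100a8 UMI, against 1.17 in neutrophils of that library. The CCl4+IPA library had 3 such barcodes with 1 UMI of each gene, and with so few no comparison between the libraries was made.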

How the results depend on the processing

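No paired analysis was possible because each group has 1 library. The count of higher pairs (8) became 5 without the top barcode of each gene; the count of lower pairs (15) became 8 with classes by clusters and 8 when thinned. The B cell percentage of S100a8 in the CCl4+IPA library (0.111) became 0.136 with several lineages kept, 0.093 with S100a8 and S100a9 out of the total, 0.176 as a mean over cells and 0.165 thinned. In the CCl4 library (0.0779) these gave 0.115, 0.0637, 0.123 and 0.121, clusters gave 0.0844 and the mixed cluster kept 0.145. Log2 ratios that changed sign were, by clusters, S100a8 (-0.93) and S100a9 (-0.60) in monocytes, S100a6 in macrophages (0.41), and S100a8 (1.73) and S100a9 (1.89) in conventional dendritic cells. In macrophages a stricter gate, which changed the set of barcodes, gave 1.47 for S100a4, 1.41 for S100a6 and 2.39 for S100a10. Thinning gave 1.45, 0.22 and 1.13 for these genes, with 0.37 for S100a13. Thinned macrophages of the CCl4+IPA library held 1, 4, 0 and 0 UMIs of these genes, against 8, 25, 10 and 17 with CCl4. Counts under 3 were set to 3, so the thinned signs of S100a4, S100a10 and S100a13 rest on that floor. S100a4 in neutrophils became 0.13 as a mean over cells and 0.52 without barcodes of both gates, where S100a8 in monocytes became -0.58. S100a9 in B cells became -0.05 with the mixed cluster kept. Without top barcodes S100a8 in macrophages became -0.14 and S100a9 in conventional dendritic cells 0.38. The cause was not tested. Few cells limit macrophages, mesothelial cells and every small class.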
